A study of Homo sapiens with 8 samples.

Results

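The comparison described here set the G2 line, in which PRPF40B was targeted with CRISPR/Cas9, against the unedited wild-type (WT) line, with 3 and 2 RNA-seq libraries. The cells are SH-SY5Y, an established human neuroblastoma (NB) line of neural crest origin. Genes were kept when their mean over these 5 libraries was at least 10 normalized counts, and 18884 of the 47591 genes in the table passed. LINC00515, at a mean of 10.01, was just inside, and FALEC, at 9.99, just outside. The 3 libraries of the scramble (SCR) line, which received a scrambled guide, entered as a reference for the changes that both engineered lines share.

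G2 and SCR were made with CRISPR/Cas9 reagents of the same supplier. After puromycin selection, the edited cells were grown up from single colonies by limiting dilution, so that G2 may be 1 clone. The methods do not say how many SCR colonies were kept. Both engineered lines were cultured in medium with puromycin. WT went through neither editing nor selection and its medium is described without the drug. All 3 lines were otherwise kept in the same high-glucose DMEM with serum. The edit of PRPF40B, the choice of a clone, Cas9, the selection and the drug therefore cannot be told apart in G2/WT, and a change that SCR shares is one that an engineered line without the edit of PRPF40B also carried. The titles call the libraries biological replicates and say no more about the cultures, so p-values measure the spread between these libraries, which may be partly technical. Between 59804395 and 81080747 counts were recovered per library. Gene values are normalized counts, which are not scaled to gene length, so levels are compared between libraries and not between genes.

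PRPF40B is a homologue of the yeast U1 snRNP protein Prp40 and takes part in the recognition of splice sites. The transcription factor p53 is activated by DNA breaks and switches on CDKN1A, the inhibitor of cyclin-dependent kinases that holds cells before S phase. The E2F factors switch on the genes of DNA replication when cells pass into S phase, and are held back when CDKN1A keeps the RB proteins active. ATF4 drives the integrated stress response, which raises amino acid synthesis, amino acid transport and tRNA charging. SH-SY5Y cells are known to carry wild-type p53.

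PRPF40B (GSHG0009006, chromosome 12, hg38 positions 49623561 to 49644666) had 840, 841 and 918 normalized counts in the G2 libraries, 1686, 1672 and 1669 in SCR, and 1972 and 1668 in WT. The G2 libraries were all below the other 5, and SCR lay with WT. The log2 fold change in G2/WT was -1.07 ± 0.09 (standard error), with an adjusted p of 8.3e-07 from limma. The exact permutation test of the 3 G2 against the 2 WT libraries gave p = 0.1, which is the smallest that its 10 groupings allow.

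A call needed a fold of 1.5 or more together with a limma p-value, adjusted by Benjamini-Hochberg, no higher than 0.05. In G2/WT 5375 genes were called, 3255 higher in G2 (17.2% of those tested) and 2120 lower (11.2%). Each called gene was then placed by its SCR libraries on the log2 scale. For 1200 genes each SCR library lay nearer to the G2 mean than to the WT mean, and these are called shared below. For 3091 (57.5% of the called genes) each SCR library lay nearer to WT, and 1084 were in between. Of the 1200, 896 were also called in SCR/WT. By the mean of SCR alone 1673 genes would be shared, and 820 when a call in SCR/WT in the same direction and none in G2 against SCR were required. The shared genes comprised 719 that were higher (22.1% of the higher genes and 3.81% of all tested) and 481 that were lower (22.7% of the lower genes and 2.55% of all tested). In 990 of the 1200, the SCR mean was within 1.5-fold of the G2 mean. The class was defined by these values, so its size is a description, and G2/WT and SCR/WT use the same WT libraries.

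**Figure D1:**
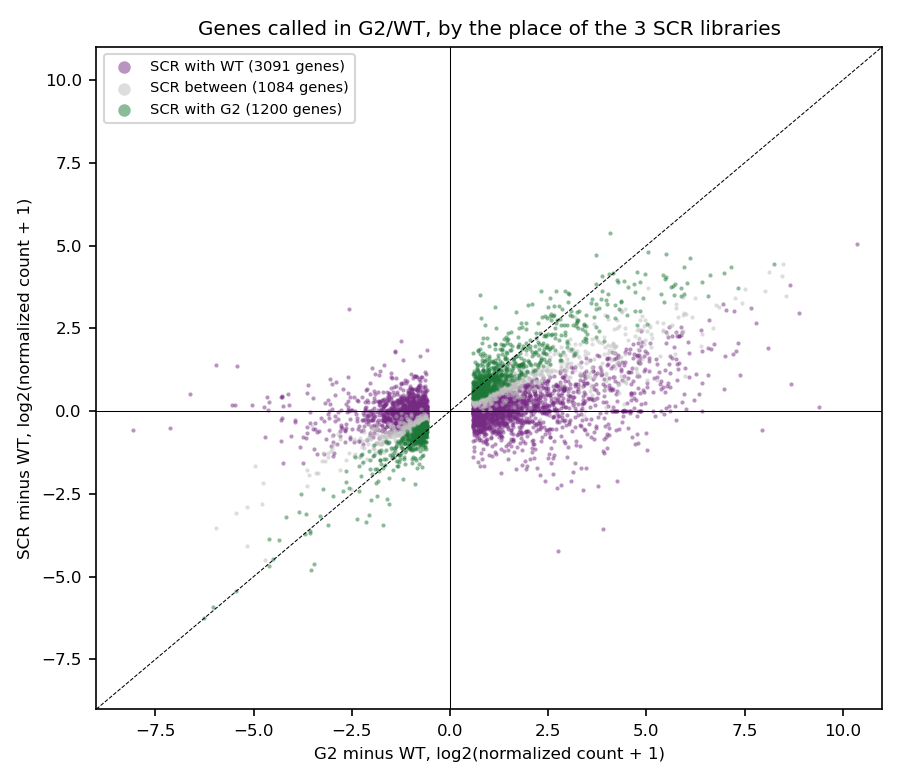
Log2 differences of G2 minus WT (x axis) and SCR minus WT (y axis) for the 5375 genes called in G2/WT, with 1 point per gene, coloured by whether the SCR libraries lie with G2 (1200 genes), between (1084) or with WT (3091); the dashed line marks equal differences. By the choice of the classes, genes with SCR with G2 lie nearer to the dashed line, and those with SCR with WT nearer to the horizontal axis. Some lie far from both, as COL3A1 (7.33 and 3.72, SCR with G2) and HGF (10.37 and 5.04, SCR with WT).

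Shared changes were mostly moderate. The median log2 difference of the 719 higher genes was 1.14 in G2/WT and 1.12 in SCR/WT, and that of the 481 lower genes was -0.79 and -0.73. A change over 4-fold was seen in 223 of the shared genes (18.6%), against 766 (24.8%) of those with SCR nearer to WT. The median WT value was 2750 normalized counts for the shared lower genes, 65.2 for the shared higher genes and 589 for all tested genes. Counts are not scaled to gene length, and the calls themselves depend on the WT level, so these medians are a description only. Of the shared higher genes, 114 were at the floor in WT, meaning that neither WT library had more than 9 recovered counts. The median gene span was 13.3 kb for shared lower genes and 22.4 kb for shared higher genes, against 39.3 kb for genes higher in G2 with SCR nearer to WT and 21.2 kb for all tested genes. Long noncoding RNAs made up 10.1% of the shared higher genes with a known biotype, 4.9% of the shared lower and 8.04% of all tested.

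The deposited normalization sets the median gene at 0.01 (log2, G2/WT). Bringing all libraries to the same total moved this median to 0.19, and to 0.13 when ribosomal RNA was left out of the total. The share of called genes that were higher in G2 was 60.6% in the deposited table and 77.0% and 72.1% under these scalings. The shared genes were affected most, with 719 higher and 481 lower in the deposited table against 1590 and 151, and 1305 and 209. The WT libraries differed from each other as well. Without WT replicate 1 there were 744 shared genes higher and 377 lower, and without WT replicate 2 there were 995 and 754.

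The clearest group that both engineered lines shared was that of DNA replication, which was lower in both. The list had 44 genes for the loading and firing of origins, the replication fork and nucleotide supply. Of these, 31 were called lower in G2 (70.5%, against 11.2% of all genes) and none higher. Of the 31, 30 were shared, against 22.7% of all lower genes. The exception was CCNE1, with a log2 difference of -0.59 in G2/WT and -0.10 in SCR/WT. The median log2 difference of the list was -0.66 in G2/WT and -0.73 in SCR/WT. In 40 of the 44 genes both WT libraries were above all 6 engineered libraries, a pattern found in 17.4% of all genes tested. When all libraries were brought to the same total 14 genes of the list remained lower in G2, and 20 when ribosomal RNA was left out, with none higher.

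PCNA, the sliding clamp of the replication fork, had 17210, 16827 and 17254 normalized counts in G2, 18400, 19629 and 20336 in SCR, and 38198 and 37267 in WT. Its WT level was 2.21 times that of G2, with a log2 fold change of -1.14 ± 0.06 (standard error) and an adjusted p of 1.1e-08 from limma. MCM2, a subunit of the replicative helicase, had 9729, 10262 and 9979 in G2, 10302, 10612 and 10718 in SCR, and 19386 and 18757 in WT. All 6 engineered libraries were far below both WT libraries (log2 fold change -0.93 ± 0.05 in G2/WT, adjusted p = 4e-08, limma). E2F2 had the lowest log2 difference of the list. Its values were 860, 878 and 889 in G2, 1076, 1024 and 985 in SCR, and 2312 and 2333 in WT (-1.41 ± 0.07, adjusted p = 1.9e-08, limma).

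The other subunits of the helicase divided. MCM3, MCM5, MCM6 and MCM7 were shared and lower, with log2 differences between -0.79 and -0.62 in G2/WT. MCM4 had 9396 to 9937 normalized counts in G2, 5574 to 5639 in SCR, and 9245 and 9758 in WT. G2 was thus at the level of WT for MCM4 and SCR alone was lower (log2 difference 0.01 in G2/WT and -0.76 in SCR/WT). CCNE2, a cyclin of S phase entry, and GINS4, of the origin-firing complex, also had G2 at the level of WT, at 0.00 and -0.03. MCM4, CCNE2 and GINS4 are the 3 list members on chromosome 8, where the median of all 694 tested genes was 0.27 in G2/WT and 0.04 in SCR/WT. They were singled out after their values were seen.

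**Figure D2:**
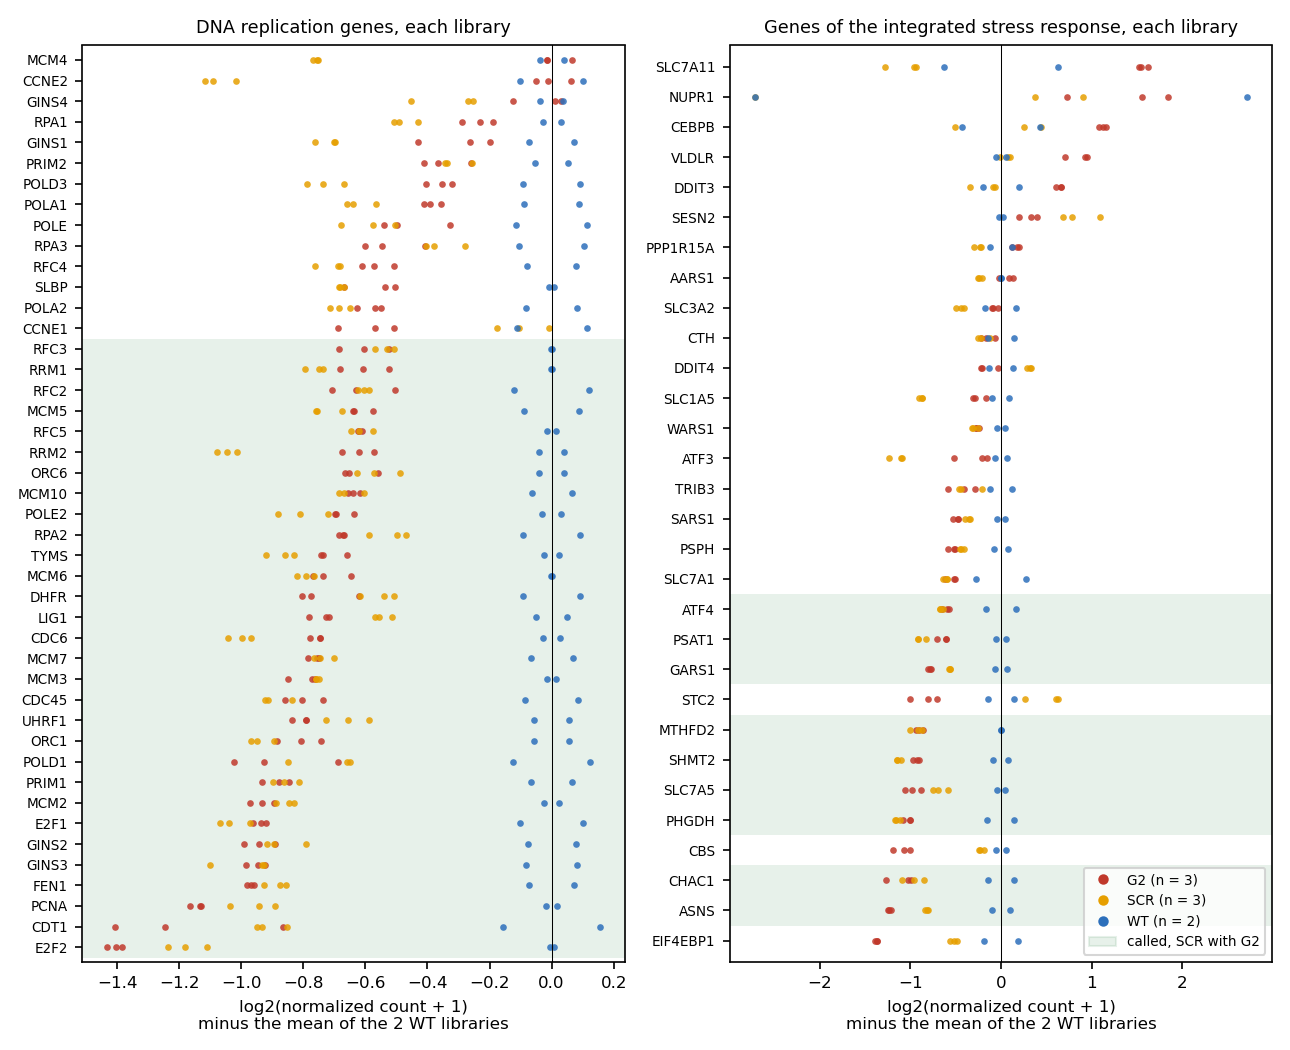
Log2(normalized count + 1) of each library minus the mean of the 2 WT libraries, for 44 DNA replication genes (left) and 30 genes of the integrated stress response (right), with 1 point per library (3 G2, 3 SCR, 2 WT); green bands mark called genes whose SCR libraries lie with G2. In PCNA and E2F2 the 6 engineered libraries all lie below WT, while MCM4 and CCNE2 are lower in SCR alone.

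E2F factors bind the letters TTTGGCGC or TTTCCCGC, and these were searched on both strands of RefSeq promoter windows (GRCh38.p14, 250 bases before to 50 after the start). Windows were found by symbol for 12023 of the tested genes, and 425 of them (3.53%) held a match. Among the shared lower genes, 41 of 333 windows held a match (12.3%), and 26 of 306 (8.5%) when the DNA replication list was left out. The shares were 1.79% for shared higher genes, 2.09% for genes lower in G2 with SCR nearer to WT and 2.22% for those higher in G2 with SCR nearer to WT. In the DNA replication list 18 of 36 windows matched. A match is a run of letters and not a measured site. Whole windows of PCNA and E2F2 and 60 bases of 5 further promoters are shown, because these are the list members with a match that had the smallest p among the shared lower genes. The match is in capitals and the strand is that of the gene. They lie at chr20:5126573-5126872 (PCNA, minus strand), chr1:23531184-23531483 (E2F2, minus), chr6:52284883-52284942 (MCM3, minus), chr16:85688952-85689011 (GINS2, minus), chr7:100101551-100101610 (MCM7, minus), chr20:33686372-33686431 (E2F1, minus) and chr17:40287860-40287919 (CDC6, plus).
PCNA: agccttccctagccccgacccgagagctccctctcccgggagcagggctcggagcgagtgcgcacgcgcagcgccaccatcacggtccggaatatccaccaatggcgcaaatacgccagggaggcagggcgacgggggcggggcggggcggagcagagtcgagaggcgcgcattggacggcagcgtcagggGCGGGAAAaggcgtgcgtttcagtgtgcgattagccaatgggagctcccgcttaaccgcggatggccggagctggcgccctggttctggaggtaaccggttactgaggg
E2F2: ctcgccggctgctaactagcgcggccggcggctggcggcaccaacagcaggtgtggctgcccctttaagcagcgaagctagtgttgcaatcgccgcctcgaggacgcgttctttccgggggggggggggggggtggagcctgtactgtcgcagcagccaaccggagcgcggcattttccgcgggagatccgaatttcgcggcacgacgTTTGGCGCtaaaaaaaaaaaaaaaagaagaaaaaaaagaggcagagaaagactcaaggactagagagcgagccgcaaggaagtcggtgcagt
MCM3: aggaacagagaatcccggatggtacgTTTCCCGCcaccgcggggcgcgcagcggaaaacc
GINS2: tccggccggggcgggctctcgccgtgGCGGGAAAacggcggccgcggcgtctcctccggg
MCM7: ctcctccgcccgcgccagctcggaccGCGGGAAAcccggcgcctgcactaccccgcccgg
E2F1: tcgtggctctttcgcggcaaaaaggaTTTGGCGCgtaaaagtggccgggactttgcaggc
CDC6: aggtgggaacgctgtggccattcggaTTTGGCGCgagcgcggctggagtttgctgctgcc
The matches began at -59 from the start of PCNA, -42 in E2F2, -174 in MCM3, -31 in GINS2, -187 in MCM7, -20 in E2F1 and 7 in CDC6.

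The genes with these windows were taken from the shared genes, so their SCR libraries lie nearer to G2 than to WT by the choice. GINS2, a partner of the helicase at fired origins, had 7330 to 7865 normalized counts in G2, 7715 to 8417 in SCR, and 15382 and 13817 in WT. E2F1 had 3805 to 3915 in G2, 3532 to 3780 in SCR, and 7953 and 6904 in WT. CDC6, which loads the helicase, had 3656 to 3738 in G2, 3044 to 3200 in SCR, and 6385 and 6154 in WT. In CDC6 all SCR libraries were below all G2 libraries. This order, SCR below G2 below WT, was found in 15 genes of the replication list, and the order G2 below SCR below WT in 10. Over all 18884 genes tested, the 2 orders were found in 559 and 1344.

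Few genes of mitosis were called in G2. Of 42 genes tested, 5 were called lower in G2/WT (11.9%, near the 11.2% of all genes) and none higher, and all 5 were shared. In SCR/WT 21 were lower, and in the direct contrast of G2 and SCR 2 were higher in G2 and none lower. Of all 18884 genes tested, 922 were lower in SCR/WT, and 2802 were higher and 1916 lower in G2 against SCR. The median log2 difference was -0.33 in G2/WT and -0.59 in SCR/WT. MYBL2, which acts with the DREAM complex on G2/M genes, had 10822, 10677 and 10806 normalized counts in G2, 9395, 9143 and 9701 in SCR, and 18888 and 17802 in WT (log2 fold change -0.77 ± 0.05, adjusted p = 2.7e-07, limma). CDC25A, a phosphatase of S phase entry, was lowest at -0.99 ± 0.08 (adjusted p = 5.8e-07, limma). BIRC5, or survivin, had 17657 to 18282 in G2, 15437 to 16152 in SCR, and 26887 and 27193 in WT, and its fold of 1.51 was at the threshold. With all libraries at the same total, MYBL2 and BIRC5 were no longer called in G2/WT (-0.58 and -0.41), and 1 gene of the list was lower and 1 higher. SCR lay below G2, and G2 below WT, without overlap in 26 of the 42 genes, against 559 of all 18884 genes tested. The letters TTTGAA, which hold the core of the CHR element of mitotic promoters, were present in 23 of 35 windows of this list and in 9.97% of all windows. Among the shared lower genes their share was 9.91%.

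Among targets of p53, most of those that rose in G2 were shared. Of 30 well-known targets, 13 were called higher in G2 (43.3%, against 17.2% of all genes) and 1 lower (3.33%, against 11.2%). Of the 13, 11 were shared, against 22.1% of all higher genes. The median log2 difference was 0.49 in G2/WT and 0.89 in SCR/WT, and 18 genes were higher in SCR/WT. Set directly against SCR, 12 of the 30 were lower in G2 and 2 higher. Of all 18884 genes tested, 1630 were higher in SCR/WT, and against SCR 1916 were lower in G2 and 2802 higher. Both WT libraries were below all 6 engineered libraries in 17 of the 30 genes, against 15.4% of all genes tested. In 10 of these the order was SCR above G2 above WT without overlap, and in 4 it was G2 above SCR above WT. Over all 18884 genes tested, these orders were found in 409 and 1363.

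CDKN1A (chromosome 6) had 11489, 12873 and 13793 normalized counts in G2, 23053, 22684 and 22161 in SCR, and 4580 and 4019 in WT. The lines did not overlap, and SCR was the highest. The log2 fold change in G2/WT was 1.56 ± 0.08 (adjusted p = 1.4e-08, limma), and the difference of SCR and WT was 2.40. GDF15, a secreted stress cytokine, had 300, 289 and 393 in G2, 368, 365 and 266 in SCR, and 73.3 and 68.5 in WT. Here the 2 engineered lines overlapped (2.18 ± 0.18 in G2/WT, adjusted p = 1.1e-06, limma). EDA2R, a death receptor family member on chromosome X, had 435, 412 and 437 in G2, 1660, 1856 and 1606 in SCR, and 186 and 196 in WT (1.16 ± 0.10, adjusted p = 1.1e-06, limma). It showed the widest gap between the engineered lines among the shared targets, with a log2 difference of 3.15 in SCR/WT. FAS, the death receptor, was higher in G2 than in SCR, with 132 to 140, 82.7 to 96.7, and 16.1 and 38.7 in WT.

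PHLDA3, BTG2, TP53INP1, SPATA18, RRM2B, PLK3 and POLH made up the rest of the shared targets, with log2 differences from 0.79 to 1.43 in G2/WT and from 0.52 to 2.25 in SCR/WT. PLK2 and TP53I3 were higher in G2 and had SCR nearer to WT. PLK2, a kinase of the polo family, had 10648 to 10997 in G2, 2213 to 2406 in SCR, and 1067 and 1107 in WT. TP53I3 had 6098 to 6414 in G2, 2085 to 2229 in SCR, and 2460 and 2323 in WT. MDM2, the ligase that degrades p53, had 12253 to 14147 in G2, 17618 to 20586 in SCR, and 12074 and 15362 in WT, so that G2 overlapped WT. BBC3, BAX and PMAIP1, which act in apoptosis, had G2/WT log2 differences of -0.18, -0.15 and 0.05, none past the threshold. AEN was the target called lower in G2, at -0.61, with a difference of 0.39 in SCR/WT. The scalings to the same total gave 16 targets higher and 0 lower in G2/WT.

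**Figure D3:**
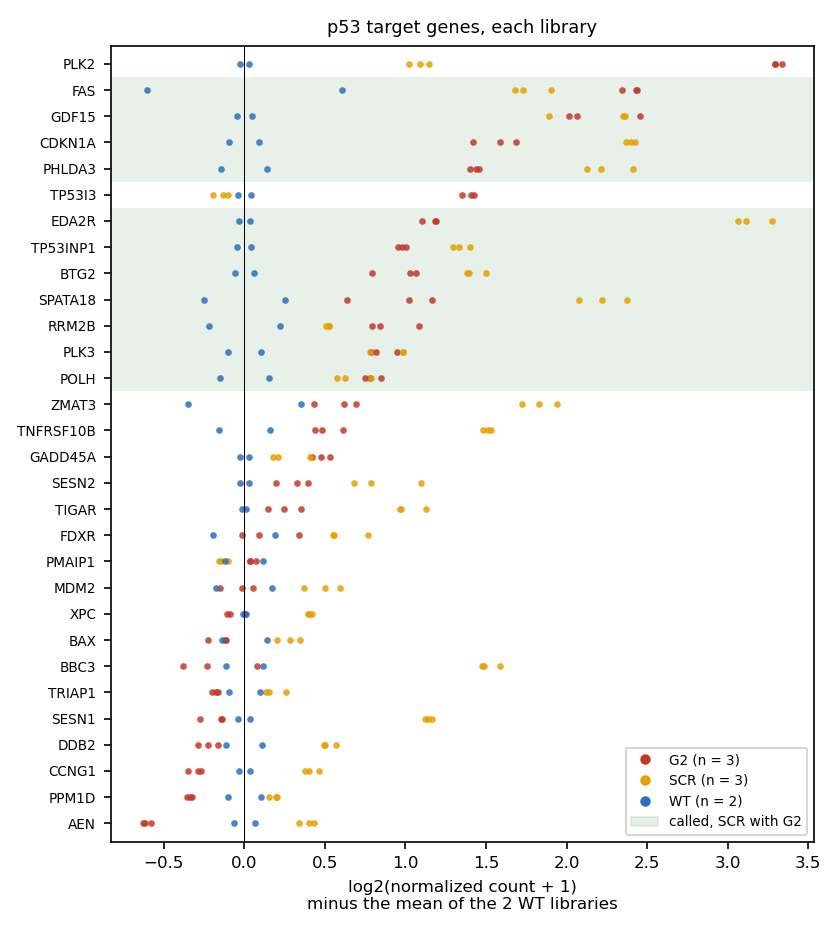
Log2(normalized count + 1) of each library minus the mean of the 2 WT libraries, for 30 p53 target genes ordered by G2 minus WT, with 1 point per library (3 G2, 3 SCR, 2 WT); green bands mark called genes whose SCR libraries lie with G2. SCR is the highest line in CDKN1A and EDA2R, while PLK2 and TP53I3 are high in G2.

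Part of the genes of the integrated stress response was lower in both engineered lines. Of 30 genes tested, 12 were called lower in G2/WT (40%, against 11.2% of all genes). Only 4 were higher (13.3%, below the 17.2% of all genes). Of the 12, 9 were shared, and in all 9 the SCR mean was within 1.5-fold of the G2 mean. ATF4 itself (chromosome 22) had 26841, 28014 and 28422 normalized counts in G2, 27037, 26485 and 26487 in SCR, and 47473 and 37556 in WT. The engineered lines overlapped and lay below WT (log2 fold change -0.61 ± 0.08, adjusted p = 6.3e-05, limma). ASNS, which makes asparagine, had 3324, 3373 and 3303 in G2, 4434, 4468 and 4356 in SCR, and 8390 and 7276 in WT (-1.23 ± 0.07, adjusted p = 2.6e-08, limma). PHGDH, PSAT1 and SHMT2 of serine and glycine synthesis had log2 differences of -1.03, -0.64 and -0.93 in G2/WT and -1.15, -0.89 and -1.13 in SCR/WT. PSPH, the last enzyme of serine synthesis, was at -0.54 and did not reach the fold threshold. MTHFD2, of mitochondrial folate metabolism, had 3549 to 3720 in G2, 3379 to 3716 in SCR, and 6751 and 6797 in WT. CHAC1, which degrades glutathione, the amino acid transporter SLC7A5 and the tRNA synthetase GARS1 were the remaining shared genes, at -1.10, -0.97 and -0.79.

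The 4 members that were higher in G2 all had SCR nearer to WT, and they were SLC7A11, CEBPB, VLDLR and DDIT3. DDIT3, or CHOP, had 1603 to 1671 in G2, 831 to 1004 in SCR, and 1211 and 916 in WT. EIF4EBP1, a brake on translation, and CBS, of transsulfuration, were lower in G2 and had SCR nearer to WT. The fold of EIF4EBP1 in WT over G2 was 2.61 (log2 fold change -1.37 ± 0.09, adjusted p = 1.1e-07, limma). With all libraries at the same total, 10 genes were lower in G2 and 5 of these were shared, and 4 were higher. The CARE letters TGATGNAAN, bound by ATF4 with a C/EBP partner, were found on either strand in 6 of 25 promoter windows of this list, against 1.75% of all windows. Among all shared lower genes, 7 of 333 windows matched (2.1%), near the share of all windows. Of the matching genes in the list, ASNS and CHAC1 were shared and lower, and SLC7A1, ATF3, AARS1 and SLC3A2 were not. The windows of 60 bases around the match are shown for ASNS and CHAC1, the matching genes with the smallest p, at chr7:97872443-97872502 (minus strand) and chr15:40953235-40953294 (plus strand), with the match in capitals.
ASNS: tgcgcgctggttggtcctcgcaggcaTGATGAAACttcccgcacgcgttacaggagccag
CHAC1: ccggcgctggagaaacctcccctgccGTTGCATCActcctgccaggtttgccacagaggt

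Partners of the PRP40 proteins and components of the early spliceosome included a few genes that were lower in both lines. Of 36 genes, 7 were called lower in G2/WT (19.4%, against 11.2% of all genes) and none higher, and 5 were shared. Both WT libraries were above all 6 engineered ones in 26 of the 36, against 17.4% of all genes. The 5 were SNRPC and SNRNP70, proteins of the U1 snRNP, SNRPD1 and SNRPF, of the Sm ring, and U2AF1, which reads the 3′ splice site. U2AF1 had 4584, 4620 and 4365 normalized counts in G2, 4648, 4861 and 4952 in SCR, and 7437 and 7100 in WT (log2 fold change -0.68 ± 0.06, adjusted p = 1.6e-06, limma). SF1, which binds the branch point and PRP40 proteins, had 13107 to 14087 in G2, 13552 to 14038 in SCR, and 20779 and 19844 in WT, and its log2 difference of -0.58 fell just short of a call. The direction of this list depended on the scaling, with 0 higher and 7 lower in the deposited table, 2 higher and 0 lower at the same total, and 1 higher and 2 lower without ribosomal RNA. SF3B1, a core splicing factor that every cell uses, is listed at or near 0 in all 8 libraries, so a gene listed at 0 is not read as silent.

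Cytosolic ribosomal proteins differed from the groups above in that G2 was below SCR as well. Of 78 genes, 72 were called lower in G2/WT (92.3%, against 11.2% of all genes) and none higher. Of the 72, 1 was shared (RPS26), 23 were in between and 48 had SCR nearer to WT. In the direct contrast of G2 and SCR, 19 of the 78 were called lower and none higher, with a median log2 difference of -0.49. The median log2 difference was -0.80 in G2/WT and -0.32 in SCR/WT. The order G2 below SCR below WT held without overlap in 62 genes, against 1344 of all 18884 genes tested. RPS26, of the small subunit, had 9894, 9894 and 9666 normalized counts in G2, 12327, 12197 and 11306 in SCR, and 17729 and 13706 in WT. All G2 libraries were below all SCR libraries and these below WT (log2 fold change -0.67 ± 0.09, adjusted p = 6.2e-05, limma). With all libraries at the same total 46 genes were lower in G2, and 57 when ribosomal RNA was left out.

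Ribosomal RNA, which poly(A) selection should remove, made up 4.96% and 4.75% of the WT libraries and 0.384% to 0.587% of the engineered ones by normalized count. Its 3 tested entries, all on chromosome 21, were shared, with log2 differences from -3.68 to -3.56. The entry led by RNA45SN3 had 88414, 66124 and 59913 normalized counts in G2, 64896, 69016 and 74419 in SCR, and 962723 and 844144 in WT (-3.68 ± 0.13, adjusted p = 7.3e-10, limma). The engineered lines overlapped and WT was 12.6 times the level of G2. These entries are near-identical copies, and reads may have been divided among them. Other RNAs without a poly(A) tail were 8 lower and 2 higher in G2/WT among 45 tested, but 6 lower and 6 higher with all libraries at the same total. RN7SK had 322, 95.3 and 74.1 in G2, 52.0 to 84.5 in SCR, and 618 and 500 in WT. RMRP had 3.28 to 28.2 in G2, 3.06 to 11.3 in SCR, and 63.3 and 68.5 in WT. The histone genes H1-2 and H2BC4 were lower and shared (-0.86 and -0.76), and H2AC11 and H3C8 were higher and shared (0.79 and 0.59). H2BC4 was not called at the same total (-0.57) or without WT replicate 1 (-0.53). The 3 ribosomal RNA entries were high in WT against both engineered lines, whereas the 45 other RNAs had median log2 differences of 0.04 in G2/WT and -0.02 in SCR/WT. The part of this residue in the other shared changes was not tested.

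Beyond these lists, the 12 largest rises and 12 largest falls that both engineered lines shared closely were taken, among genes that had a symbol, averaged 100 or more across the 8 libraries and had both WT libraries outside the range of the other 6. DRAM1 (chromosome 12), a lysosomal protein of autophagy and itself a p53 target outside the list, had the largest rise. It had 355, 408 and 331 normalized counts in G2, 294, 298 and 345 in SCR, and 24.8 and 32.8 in WT. G2 was 12.7 times the level of WT (log2 fold change 3.62 ± 0.17, adjusted p = 6e-09, limma). LIF, a cytokine of the interleukin-6 family, had 346, 366 and 405 in G2, 295, 346 and 305 in SCR, and 62.1 and 28.8 in WT (3.10 ± 0.25, adjusted p = 7.7e-07, limma). FGF1, a fibroblast growth factor, had 247, 304 and 275 in G2, 404, 345 and 345 in SCR, and 45.9 and 70.5 in WT (2.25 ± 0.18, adjusted p = 9.9e-07, limma). LIF and GDF15 overlapped between the engineered lines, whereas SCR was above G2 in each library for FGF1 and the sodium channel subunit SCN4B.

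FOXD1, a forkhead factor, had 581, 583 and 685 in G2, 522, 453 and 493 in SCR, and 137 and 107 in WT (2.33 ± 0.13, adjusted p = 4.3e-08, limma). PLAGL1, an imprinted zinc finger gene that slows the cell cycle, had 1294, 1165 and 1236 in G2, 1096, 832 and 920 in SCR, and 194 and 334 in WT (2.27 ± 0.19, adjusted p = 9.7e-07, limma). The other rises were LINC02735, a long noncoding RNA, EFHD1, a calcium-binding protein of mitochondria, ARHGEF28, a guanine nucleotide exchange factor, YPEL4, and RAB20, a small GTPase of endosomes. Their log2 differences ran from 1.85 to 3.22 in G2/WT and from 1.32 to 3.00 in SCR/WT.

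**Figure D4:**
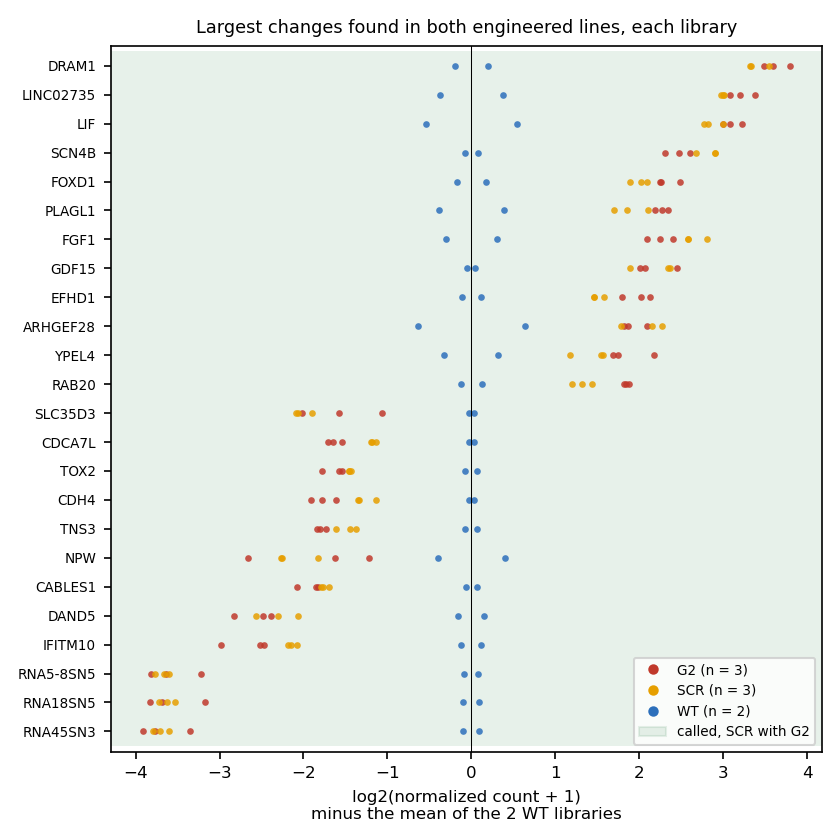
Log2(normalized count + 1) of each library minus the mean of the 2 WT libraries, for the 12 largest rises and 12 largest falls shared closely by both engineered lines, with 1 point per library (3 G2, 3 SCR, 2 WT). The WT libraries lie apart from the other 6 in each gene, as the choice requires; DRAM1 is at the top and the 3 ribosomal RNA entries at the bottom.

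Among the falls, IFITM10 (chromosome 11) had 715, 502 and 691 normalized counts in G2, 895, 871 and 934 in SCR, and 4304 and 3646 in WT. WT was 6.25 times the level of G2 (log2 fold change -2.66 ± 0.14, adjusted p = 1.6e-08, limma). DAND5, a secreted antagonist of Nodal and BMP signals, had 169, 217 and 230 in G2, 204, 289 and 244 in SCR, and 1348 and 1088 in WT (-2.57 ± 0.18, adjusted p = 1.9e-07, limma). CABLES1, which links cyclin-dependent kinases to their regulators, had 769, 758 and 645 in G2, 838, 798 and 785 in SCR, and 2601 and 2860 in WT (-1.92 ± 0.10, adjusted p = 1.1e-08, limma). The engineered lines overlapped in DAND5, and SCR was slightly above G2 in each library for IFITM10 and CABLES1. TNS3, a focal adhesion protein, CDH4, or R-cadherin, CDCA7L, a MYC-interacting protein, TOX2, NPW, the precursor of neuropeptide W, and SLC35D3 had log2 differences from -1.83 to -1.55 in G2/WT.

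Some imprinted genes were among the shared genes. Of 36 tested, 12 were higher (33.3%, against 17.2% of all genes) and 13 lower (36.1%, against 11.2%) in G2/WT. Of these, 4 and 3 were shared, not far from the 22.1% and 22.7% of all higher and lower genes. IGF2 and H19, neighbours on chromosome 11 that are expressed from opposite parental alleles, were both low in both engineered lines. IGF2 had 152, 98.5 and 155 normalized counts in G2, 70.4, 51.6 and 55.9 in SCR, and 1571 and 1389 in WT (log2 fold change -3.47 ± 0.21, adjusted p = 7.1e-08, limma). H19 had 10.3, 15.3 and 17.2 in G2, 19.4, 35.7 and 34.0 in SCR, and 260 and 278 in WT (-4.17 ± 0.35, adjusted p = 1.2e-06, limma). The third shared fall, CDKN1C, is an inhibitor of cyclin-dependent kinases from the same imprinted region, with 168 to 315 in G2, 216 to 258 in SCR, and 792 and 429 in WT. GNAS, which encodes a G protein subunit, was higher, with 260478, 271803 and 263979 in G2, 225812 to 240871 in SCR, and 146919 and 126290 in WT (0.96 ± 0.07, adjusted p = 3.1e-07, limma). These genes were named for their class in the list, after their values were seen.

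In some shared genes SCR was nearer to G2 than to WT on the log2 scale but still far from it. COL3A1, a fibrillar collagen of mesenchymal cells, had 40156 to 41625 in G2, 3242 to 3410 in SCR, and 248 and 258 in WT. The G2 level was 162 times that of WT, and SCR lay well apart from both (log2 fold change 7.33 ± 0.06 in G2/WT, adjusted p = 2.2e-15, limma, and a difference of 3.72 in SCR/WT). In bulk RNA, fewer cells of a type and less RNA per cell cannot be told apart, and this holds for each marker of identity given here. ACTA2, smooth muscle actin, had 1206 to 1346 in G2, 641 to 667 in SCR, and 155 and 159 in WT. INSM2, of the noradrenergic list, had 1350 to 1616 in G2, 2723 to 2985 in SCR, and 7153 and 6757 in WT. NRTN, a ligand of the GDNF family, had 123 to 239 in G2, 318 to 370 in SCR, and 1050 and 720 in WT.

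Lists tied to cell identity and matrix changed in G2 as well. Over all called genes, 57.5% had SCR nearer to WT, which does not mean that SCR equalled WT, and 22.3% were shared. Of all genes tested, 17.2% were higher and 11.2% lower. In collagens, classical cadherins, multidrug ABC transporters and interferon response genes, the shared part of the calls was near that of all called genes. Of 24 mesenchymal factors, 17 were higher in G2 and none lower, with 3 shared and 13 with SCR nearer to WT. In SCR/WT 8 of them were called higher, as were 9 collagens and 13 matrix glycoproteins, against 1630 of all 18884 genes tested. Of 41 matrix glycoproteins and proteoglycans 30 were higher, with 3 shared, and of 17 integrins 12 were higher, with none shared. Genes of vesicle release had 6 higher and 16 lower of 35, with 2 of the higher ones shared, and genes for the handling of catecholamines 3 and 10 of 17, with 1 of the higher ones shared. The noradrenergic list had 5 higher and 13 lower of 24, with 3 lower ones shared. Collagens had 15 higher and 2 lower of 26, with 4 shared, matrix proteases and inhibitors 22 and 5 of 37, with 1 shared, and classical cadherins 5 and 2 of 11, with both falls shared. Neurotrophin signalling had 11 higher and 5 lower of 24, with 2 shared, and neuronal cytoskeleton genes 2 and 7 of 27, with 1 shared. Multidrug ABC transporters had 5 higher and 3 lower of 13, with 2 shared. Interferon response genes had 14 higher and 1 lower of 26, with 3 shared (MX1, DHX58 and STAT2). STAT2 had 470 to 503 in G2, 399 to 431 in SCR, and 245 and 281 in WT. The 10 genes the study named for G2 were chosen on these samples, with 9 higher, 1 lower and none shared, which is not independent evidence.

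**Figure D5:**
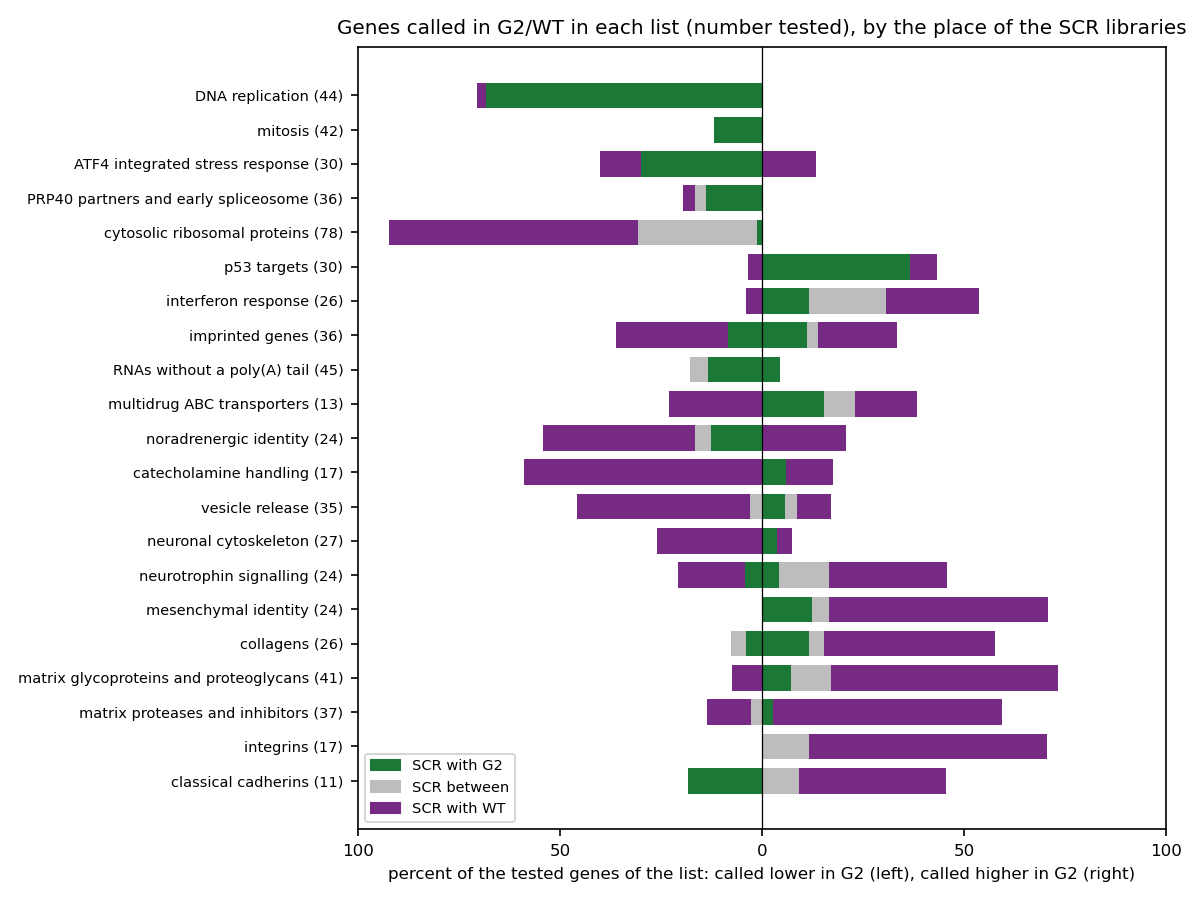
Percent of the tested genes of 21 lists (number in brackets) that were called lower (left) or higher (right) in G2/WT, split by whether the SCR libraries lie with G2, between or with WT. The calls of the DNA replication and p53 lists have SCR mostly with G2, and those of integrins and vesicle release mostly with WT.

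The largest changes with SCR nearer to WT give the scale of what the lines did not share. HGF, hepatocyte growth factor, had 7227, 7031 and 7030 normalized counts in G2, 193, 169 and 166 in SCR, and 6.21 and 2.98 in WT. Both WT libraries were under 9 recovered counts, and against that floor per library G2 was at least 706-fold higher. All SCR libraries were above both WT libraries too. HTR4, a serotonin receptor, had 453 to 496 in G2, 4.53 to 13.1 in SCR, and 0 in both WT libraries, which makes G2 at least 47.0-fold higher against the same floor. IL33, an alarmin, had 5462 to 5646 in G2, 161 to 218 in SCR, and 13.7 and 11.9 in WT. THBS2 and FLT1 completed the 5 largest rises. Of the falls, ZNF662 had 16.4 to 18.8 in G2, 461 to 583 in SCR, and 448 and 443 in WT (log2 fold change -4.60 ± 0.16, adjusted p = 7.3e-10, limma), and SCR lay slightly above WT. LOC105371703, NLGN4X, ABCA10 // ABCA5 and PPEF1 were the other 4.

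In 162 called genes SCR/WT was called in the direction opposite to G2/WT, with 109 of them higher in G2 and 53 lower. TIMP1, an inhibitor of matrix proteases on chromosome X, had 17813, 18648 and 18220 in G2, 108, 122 and 81.6 in SCR, and 1372 and 1071 in WT. LAT2, an adaptor of immune receptors, had 576 to 704 in G2, 6.57 to 10.6 in SCR, and 45.9 and 46.7 in WT. WT lay between the engineered lines in both genes, and overlapped neither.

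The shared genes were spread over the chromosomes. Shared higher genes made up 1.47% (chromosome 21) to 5.52% (chromosome X) of the tested genes of a nuclear chromosome, against 3.81% of all tested genes. Shared lower genes made up 0.576% (chromosome 8) to 6.37% (chromosome 21), against 2.55% of all tested genes, and the 3 ribosomal RNA entries are among the 13 on chromosome 21. Of the 17 tested entries of the mitochondrial genome, which carry no symbols in the table, 4 were shared and lower, with a median log2 difference of -0.36 in G2/WT and -1.10 in SCR/WT.

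The labelled cell type was checked against its markers. Of 15 markers of noradrenergic neuroblastoma, 14 were tested, of which 10 were lower and none higher in G2. Their summed level was 309459 to 318080 in G2, 479670 to 486749 in SCR, and 416596 to 425836 in WT. DBH, HAND2 and ISL1 were well above the filter in all lines, while TH, the first enzyme of catecholamine synthesis, did not reach it.

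Markers of fibroblasts and smooth muscle summed to 897431 to 940946 in G2, 467983 to 513986 in SCR, and 488589 to 508349 in WT, with 11 of 14 higher in G2 and 1 of the 16 listed at 0 in every library. Schwann and glial markers summed to 11080 to 11610, 6460 to 7490, and 6984 to 7290, from 6 tested genes of 18. SOX10, MBP and GFAP did not pass the filter, and 5 of the 18 were listed at 0 throughout. Epithelial markers (10 of 16 tested) summed to 368 to 507, 319 to 408, and 339 to 374. Blood and endothelial markers (3 of 14 tested) summed to 59 to 102, 57 to 93, and 46 to 58. None of these sums separated both engineered lines from WT. Single fibroblast markers did, since in 9 of the 14 both WT libraries were below all 6 engineered ones (15.4% of all genes tested). In SCR/WT 5 markers were called higher, against 1630 of all 18884 genes tested. SCR was 13.2 times the level of WT for COL3A1 and 6.32 times for DCN. The part of other cells in the shared genes was not tested.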

How the data were processed

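RNA of 8 SH-SY5Y libraries (3 G2, 3 SCR, 2 WT) was sequenced as stranded poly(A) libraries. Per the labels and methods, the authors aligned reads to hg38 with STAR, counted them per gene with featureCounts (Subread 1.5.0) and deposited normalized counts from DESeq2, a signal that is relative to each library's size factor. Lists and members were chosen with earlier results of these data known. Values were taken as log2(normalized count + 1), and limma 3.58.1 (R 4.3.3) was fitted over all 8 libraries with 1 mean per line and a mean-variance trend, for genes averaging 10 or more across the G2 and WT libraries, with Benjamini-Hochberg adjustment over 18884 genes. Fold changes on this scale understate the changes of low genes. The calls add the adjustment to the fold of 1.5, where the methods use the unadjusted p.

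Whole counts (tolerance 0.01) were recovered for all 8 libraries. The step of WT replicate 2 (0.993) was near 1, and DESeq2 1.42.0 and edgeR 4.0.16 were run without this library. They were alternatives added after seeing the data, and they had 1 WT library only. Named genes were PRPF40B, the 12 largest rises and falls closely shared with SCR, the 5 largest of each with SCR nearer to WT and of those in opposite directions, and the 3 members of each list with the smallest p or its lowest and highest members. Any other gene was chosen after its values were seen. Some genes that this rule names are not reported here. The fit was tested on simulated data in which few genes changed and SCR lay fully with G2 or fully with WT. That setting does not check the placing of genes in between. Alternatives covered scaling, filters, pseudocount, leaving out libraries, the replicate number and the definition of shared genes. Coordinates are those of the table (hg38). Promoters are from RefSeq (GRCh38.p14).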

Additional observations from a re-analysis of the deposited data

Results flagged for a closer look

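In 5 genes named for the largest changes in opposite directions, G2/WT and SCR/WT differed. The genes were chosen for this gap, so their G2 minus SCR differences are given as a description, with no test. TIMP1, on the log2 scale, was 7.46 higher in G2 than in SCR, with differences of 3.91 in G2/WT and -3.55 in SCR/WT. LINC01550, a long noncoding RNA, was 6.97 higher in G2 than in SCR, with 246, 251 and 391 normalized counts in G2, 0, 2.82 and 2.27 in SCR, and 26.1 and 68.5 in WT. LAT2 differed by 6.02, with 3.77 in G2/WT and -2.25 in SCR/WT. MYO7B, an unconventional myosin, differed by 5.76, with 99.7, 123 and 69.9 in G2, 0, 0 and 4.53 in SCR, and 11.2 and 5.96 in WT. SCR and WT were both at the floor of 9 recovered counts per library for MYO7B, so no direction is read from its SCR/WT difference.

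CNR1, the cannabinoid receptor of neurons, went the other way, with a G2 minus SCR difference of -5.65. It had 0, 9.85 and 2.15 normalized counts in G2, which is at the floor, 182, 133 and 175 in SCR, and 7.45 and 42.7 in WT. The WT libraries differed widely, and the G2/WT difference of -2.57 was -1.38 and not called without WT replicate 2. It was also not called without G2 replicate 1 (-1.72) or without G2 replicate 3 (-2.54). When only the 5 G2 and WT libraries were fitted, the difference was -2.57 and not called (adjusted p = 0.12, limma). DESeq2 and edgeR, run without WT replicate 2, both gave -0.93.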

How the results depend on the processing

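Over 112 named genes and 18 alternatives, 1967 results kept their direction and side of the threshold, 31 were no longer called, 7 became called and 0 reversed. The filter at a mean of 100 gave values for 101 of the genes. A fold change of at least 2 left 3031 calls in G2/WT and 551 shared genes. With all libraries at the same total, 13 DNA replication genes and 5 stress response genes were lower and shared, and 46 ribosomal protein genes were lower; without ribosomal RNA in the total, 18 DNA replication genes were lower and shared. Leaving out 1 library at a time gave 4692 to 5808 calls, 1121 to 1749 shared genes and a PRPF40B difference of -1.19 to -0.95. DESeq2 and edgeR on the recovered counts, with WT replicate 1 as the only WT library, gave PRPF40B differences of -1.19 and -1.17. With the replicate number of the titles as a block, PRPF40B differed by -1.09, with 5284 calls and 1192 shared genes, and with the number of the library names as the block by -1.11, with 5211 and 1186. The numbers share no stated culture, and the deviations of same-numbered G2 and WT libraries had correlations of -0.173 and -0.022, so they were not taken as pairs. With 2 WT libraries, the spread of WT is the least well known.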
